A study of Mus musculus with 6 samples.

Results

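The genes described here encode Myc, Max and the partners that share their DNA site: Myc, Mycn, Mycl, Max, Mxd1, Mxd3, Mxd4, Mnt, Mlx and Mga. They were chosen by name, with earlier results of these data known. They are 10 of 21887 protein-coding genes that RefSeq places on the chromosomes of GRCm38, the assembly behind mm10. All 10 symbols were found. For each gene, the deposited list of accessible intervals was read over the gene, at its ends and within 100 kb on either side.

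Proteins of this network carry a basic helix-loop-helix leucine zipper and bind DNA as dimers at the E-box CACGTG. Max is the common partner. Dimers of Myc with Max activate genes of growth and ribosome production, whereas dimers of Max with Mxd proteins or with Mnt recruit Sin3 corepressors to the same sites. Mlx serves the glucose-sensing factors Mlxip and Mlxipl in a parallel branch, and Mga joins Max in a variant Polycomb complex, PRC1.6. In fibroblasts Myc is a growth-induced gene, and its constant expression lets primary cells escape senescence.

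The cells were mouse embryonic fibroblasts of 1 line (line A, also C2), made immortal with c-myc. ATAC-seq on whole cells measured open chromatin, where a transposase can reach the DNA and leave sequencing adapters. The groups were Ezh2 -/- cells, Ezh2 -/- cells with retroviral pMSCV-Ezh2, and wild-type cells, with 2 samples each and with c-myc immortalisation common to all. Ezh2 is the enzyme of Polycomb repressive complex 2 that methylates histone H3 at lysine 27. The values below come from 1 list, that of the Ezh2 -/- cells, so nothing here compares genotypes. The profiles of the rescued and the wild-type cells were not analysed here. The list holds no value per replicate, its read depth is unknown, and no replicate error or test can be given. No source used here names the form or species of the immortalising c-myc copy.

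The list held 21835 intervals from 19215 regions that the submitters' peak caller had marked. Each region has a total signal, read here as the area under the coverage, and a maximum signal, its height, both in the authors' unit. The total can exceed what the deposited interval itself allows: an interval of 2021 bp near Mga had a maximum of 24 and a total of 62464. Over 19147 regions on the chromosomes the median maximum was 27 (quartiles 18 and 39). A percentile below is the share of these regions with a lower maximum. Of 12 fibroblast marker genes 7 had an interval within 1 kb of a gene end, among them Vim, Col1a1, Pdgfrb and Twist1, while Dcn, Fap, Lum, Pdgfra and Thy1 had none. Of 24 markers of epithelial, blood, endothelial and pluripotent cells 9 had one, and all protein-coding genes stood at 47.4%. The 9 were Cd68 (maximum 50), Cd79a (47), Eng (37), Lin28a (34), Egfl7 (31), Sox2 (27), Elf3, Krt8 and Cldn4, while Epcam, Ptprc, Pecam1, Pou5f1 and Nanog were among those without. The nearest interval lay beside the gene at Cd79a (973 bp away), Lin28a (862 bp), Cldn4 (627 bp) and Krt8 (15 bp). Pdgfra and Pecam1 had an interval over the gene, though none at an end. The median maximum over the 7 fibroblast markers was 23, below that of Cd68 and of Cd79a.

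Of the 10 network genes 9 had an interval no more than 1 kb from a gene end, and Mycn was the exception. By the same rule 47.4% of all protein-coding genes had one. Within 100 kb of the gene the count was again 9 of 10, against 77.0% of all protein-coding genes. The strongest region at the gene ends reached percentile 75 by maximum signal at 7 of those 9 genes, where 47.9% of all genes with a gene-end interval did. Mycl and Mxd3 were the 2 below it, whereas by total signal Max and Mlx were. The median of these maxima was 49 over the 9 network genes and 39 (quartiles 29 and 50) over 10378 genes with a gene-end interval. The median total signal was 51231 over the network genes and 39334.5 over the same 10378 genes.

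**Figure D1:**
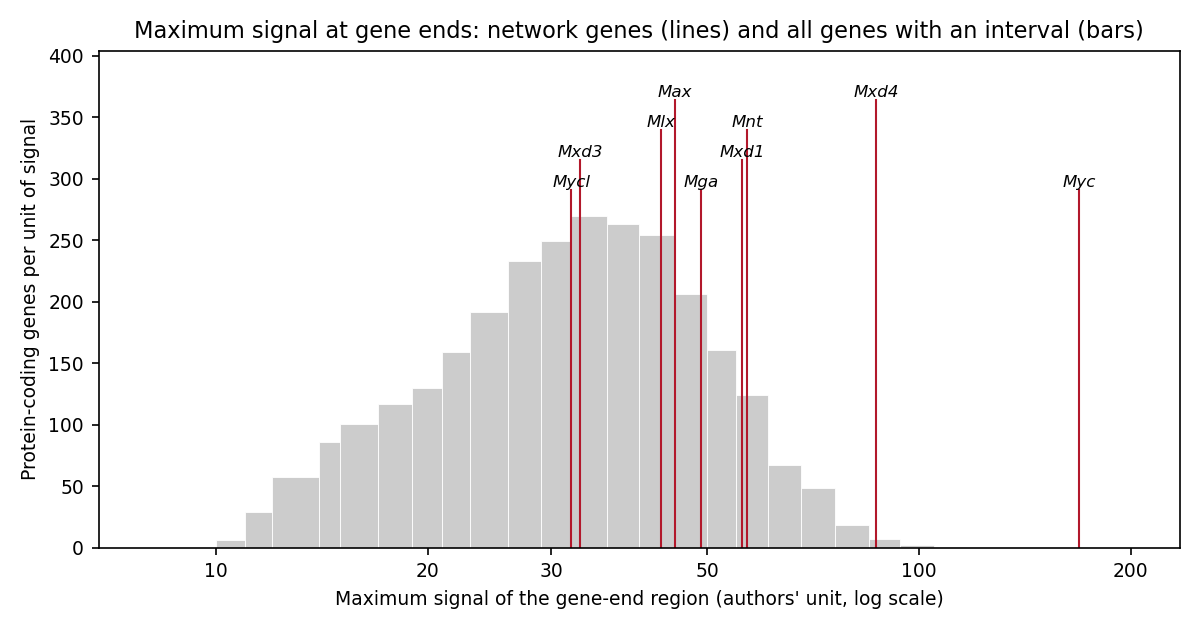
Maximum signal of the strongest gene-end region (horizontal axis, log scale, authors' unit) for the 9 network genes with an interval, drawn as labelled lines, over a histogram of all 10378 protein-coding genes with one (vertical axis, genes per unit of signal). Mycl (32) and Mxd3 (33) lie below the median of 39, and Mxd4 (87) and Myc (169) lie at the far right. The value at Myc may include reads of the immortalising c-myc copy.

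Transcription starts were available from the RefSeq promoter table for 9 of the 10 genes, all but Myc. The start lay inside an interval at 8 of these 9, and at 45.3% of the 17492 protein-coding genes in that table. All 9 promoter sequences, described below, held at least 14 CpG dinucleotides. Of the 10398 promoters with at least that number, 73.3% had the start inside an interval. In each of the 8 the interval also held its region of maximum. The maximum lay 33 bp upstream of the start at Mga, 63 bp upstream at Max, 80 bp at Mlx and 86 bp at Mxd4. It lay farther out at Mxd1 (219 bp upstream), Mxd3 (334 bp) and Mnt (532 bp). Mycl alone had it downstream of the start, by 66 bp. The median distance was 83 bp over the 8 genes and also 83 bp (quartiles 32 and 207) over 7619 genes whose start lay in an interval with its maximum. An upstream maximum occurred at 7 of the 8, and at 65.0% of those 7619 genes.

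**Figure D2:**
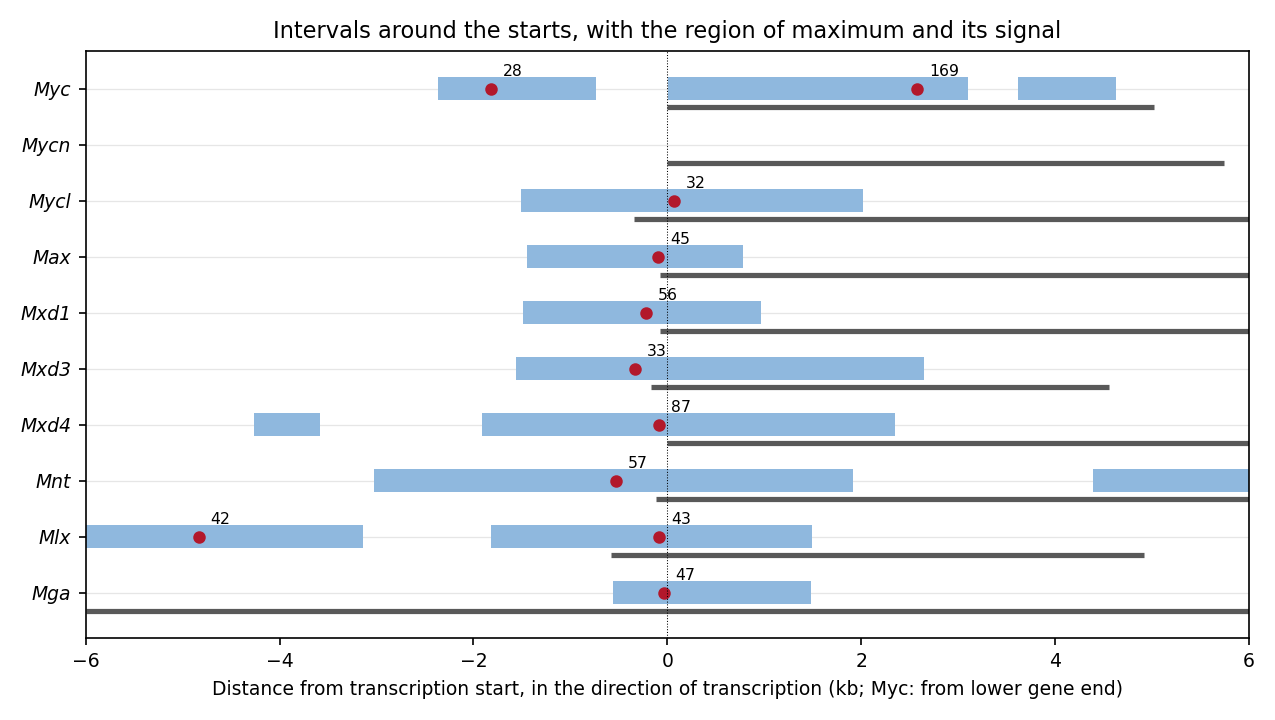
Intervals (blue bars) within 6 kb of the transcription start of each network gene, with the gene as a grey line, the region of maximum as a red dot and its maximum signal beside it. The horizontal axis runs in the direction of transcription, except for Myc, where it starts at the lower gene end. The dots in the start intervals of 8 genes lie within 532 bp of the start. Myc has a dot inside the gene and another (28) below its lower end. Mlx has another dot (42) farther upstream, and Mycn has no bar.

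The promoter sequences, 250 bases before to 50 after the start (RefSeq, GRCm38.p6), held the network's own E-box, CACGTG, at 4 of the 9 genes: Max, Mxd4, Mnt and Mlx. It occurred in 7.84% of 21263 promoters of protein-coding genes in the table. That share is over promoters of any CpG content, and none was computed for promoters as rich in CpG as these 9. CACGTG reads the same on both strands, so both were covered by a single search. These 4 promoters are shown because they join the binding site of the dimers to an accessible start of a gene that encodes a partner, with the E-box in capitals.
Max, chr12:76962199-76962498, minus strand: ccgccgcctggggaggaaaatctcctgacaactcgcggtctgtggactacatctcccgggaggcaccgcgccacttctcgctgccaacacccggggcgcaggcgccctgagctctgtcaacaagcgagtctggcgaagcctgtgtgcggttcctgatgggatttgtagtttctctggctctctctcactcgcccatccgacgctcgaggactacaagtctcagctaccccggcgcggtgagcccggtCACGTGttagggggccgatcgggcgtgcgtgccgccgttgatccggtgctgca
Mxd4, chr5:34187661-34187960, minus strand: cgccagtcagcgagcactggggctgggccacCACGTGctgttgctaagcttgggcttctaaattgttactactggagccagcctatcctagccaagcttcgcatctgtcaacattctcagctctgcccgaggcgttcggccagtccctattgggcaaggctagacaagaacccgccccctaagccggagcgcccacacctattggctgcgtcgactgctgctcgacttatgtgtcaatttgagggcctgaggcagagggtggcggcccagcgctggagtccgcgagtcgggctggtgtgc
Mnt, chr11:74830674-74830973, plus strand: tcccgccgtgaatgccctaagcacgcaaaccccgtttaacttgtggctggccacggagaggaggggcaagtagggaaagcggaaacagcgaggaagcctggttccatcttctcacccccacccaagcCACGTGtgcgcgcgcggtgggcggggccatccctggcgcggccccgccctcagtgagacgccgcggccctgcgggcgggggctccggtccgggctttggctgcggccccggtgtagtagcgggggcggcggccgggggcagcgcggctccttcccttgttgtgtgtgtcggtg
Mlx, chr11:101087040-101087339, plus strand: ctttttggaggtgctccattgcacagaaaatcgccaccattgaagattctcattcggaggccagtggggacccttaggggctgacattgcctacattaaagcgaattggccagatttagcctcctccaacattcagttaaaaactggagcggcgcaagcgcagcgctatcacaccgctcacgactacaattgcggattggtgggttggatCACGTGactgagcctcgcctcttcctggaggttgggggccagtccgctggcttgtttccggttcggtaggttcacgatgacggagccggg
The E-box began 3 bp before the start at Max, 40 bp before it at Mlx, 123 bp at Mnt and 219 bp at Mxd4. The match describes letters in the sequence and does not show that a factor was bound. Of all 1666 promoters with CACGTG, 60.1% had the start inside an interval, and of the 19597 without it 42.8% did. Promoters with the E-box also had more CpG dinucleotides (median 21, against 12 in promoters without it), and the part of this in the difference was not tested. The letters CCAAT, or ATTGG on the other strand, stood in 3 of the 9 network promoters (Mxd1, Mxd4 and Mlx) and in 38.2% of all promoters. TATAAA, or TTTATA on the other strand, stood in that of Mycl alone, 8 bp before the annotated start, and in 12.6% of all promoters.

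Myc, the founding member, is at chr15:61985341-61990361. A single marked region covered most of it, in 2 intervals of 3092 bp (61985349 to 61988440) and 1013 bp (61988960 to 61989972). These covered 81.8% of the gene, a share that 2.86% of all protein-coding genes reached. Total signal was 157886, rank 239 of 19147, and maximum signal was 169, rank 2. The maximum fell on a single base inside the gene, 2579 bp from the lower end and 2441 bp from the upper end. Myc was thus the only one of the 9 genes with an interval at both ends; 10.4% of all protein-coding genes had that. A weaker interval of 1631 bp (61982978 to 61984608, maximum 28, total signal 16284) lay 733 bp below the lower end. The immortalising copy of c-myc is in every group of the study. If it carries mouse sequence, its reads would map to the same coordinates, and the list cannot tell apart the copy and the resident gene.

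Beyond its own ends Myc had 2 intervals within 100 kb. The nearer, 47.3 kb above Myc, lay over the lower end of the long non-coding RNA gene Pvt1, and the other, 52.7 kb above Myc, lay inside it. Their maxima were 27 and 15, percentiles 49.7 and 11.7, and their widths 1337 and 1620 bp. No interval other than the one 733 bp away lay within 100 kb on the lower side.

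Mycn, the paralog of neural and other embryonic progenitors, is at chr12:12936093-12941836 and had no interval over it, at its ends or within 100 kb. The nearest lay 312.8 kb above it, at 13254621 to 13257250, with a maximum of 14 and a total of 18763. An equal or larger distance to the nearest interval was found at 12.4% of protein-coding genes. Of the 40 other protein-coding genes within 5 Mb, 52.5% had a gene-end interval and 7.5% had none within 100 kb. The list starts at a total signal of 15316, so signal below that value at Mycn would not appear, and absence from the list does not show that the gene is closed.

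The Mycn promoter is shown as that of the network gene without an interval, with 2 copies of TTTGGCGC, the letters of an E2F site, in capitals; this motif was picked after the sequence had been seen.
Mycn, chr12:12941787-12942086, minus strand: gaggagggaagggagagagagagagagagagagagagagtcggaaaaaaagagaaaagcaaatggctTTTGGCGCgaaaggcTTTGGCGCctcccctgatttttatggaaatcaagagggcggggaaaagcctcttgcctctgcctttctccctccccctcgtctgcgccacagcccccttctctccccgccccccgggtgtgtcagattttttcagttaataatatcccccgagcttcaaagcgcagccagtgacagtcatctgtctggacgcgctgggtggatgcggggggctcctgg
The copies began 183 and 168 bp before the start. TTTGGCGC, or its reverse complement GCGCCAAA, stood in 135 of 21263 promoters (0.635%) and in no other network promoter. Of those 135, 75.6% had the start inside an interval. The Mycn promoter held 14 CpG dinucleotides, the fewest of the 9, with the others between 18 (Mxd4 and Mlx) and 39 (Mxd1). Of the 10398 promoters with at least 14, 73.3% had the start inside an interval, and of the 10865 with fewer 16.3% did. The first group had a median of 25 CpG dinucleotides (quartiles 19 and 32) and the second a median of 4 (quartiles 2 and 7). Mycn thus stood at the lower edge of the first group, and neither share describes promoters with about 14.

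Mycl, the third Myc paralog, is at chr4:122995588-123002490. Its interval of 3530 bp (122994420 to 122997949) covered the start, reaching a total of 50487 and a maximum of 32. That maximum, at percentile 61.5, was the lowest of the 9 genes, although the total signal stood at percentile 79.4. The 3 Myc paralogs thus covered the whole range of the network, with maxima of 169 at Myc and 32 at Mycl and no interval at Mycn. The value at Myc may include reads of the immortalising copy. The other 4 intervals within 100 kb of Mycl included 2 over Mfsd2a, a lipid transporter gene, of which the stronger reached a maximum of 42. A further one, with a maximum of 40, lay 13.2 kb above Mycl at Trit1, a tRNA-modifying enzyme gene.

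Max, at chr12:76937269-76962323 on the chromosome of Mycn, had 1 interval of 2224 bp over its start (76961469 to 76963692). Its maximum was 45 (percentile 83.2) and its total signal 31630 (percentile 55.3). It extended 779 bp downstream of the start. The only other interval within 100 kb lay 98.7 kb away at Fntb, which encodes the farnesyltransferase beta subunit, with a maximum of 44. The gene every dimer of the Myc branch needs was thus the least surrounded by intervals of the 9, with 2 in its window, as many as the median of the 88 protein-coding genes within 5 Mb.

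Of the Mxd genes, which encode the repressing partners of Max, Mxd4 had the strongest start. Mxd4, at chr5:34176580-34187710, had an interval of 4262 bp (34185357 to 34189618) with a total signal of 70701. Its maximum of 87 ranked 52 of 19147 (percentile 99.7). Mxd1, at chr6:86647044-86669234, had one of 2454 bp (86668196 to 86670649) with a total of 51231 and a maximum of 56 (percentile 92.9). Mxd3, at chr13:55325170-55329900, had a wider one, 4214 bp (55327084 to 55331297), with a similar total of 50428 but a maximum of 33 (percentile 63.6). That interval covered 59.5% of the short Mxd3 gene. Within 100 kb Mxd1 and Mxd3 had 4 intervals each and Mxd4 had 11.

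The nearest neighbours of Mxd4 were also strong. A region split into 2 intervals, 2.96 and 5.92 kb from the 3′ end of Mxd4, had a maximum of 75 (percentile 98.8), and its farther piece lay at the ends of Poln and Haus3, which encode a DNA polymerase and an augmin subunit. On the other side, 7 intervals lay over or beside Zfyve28, from regions with maxima between 13 and 33. A further interval, 3.58 kb from Mxd4, was a piece of the same marked region as 1 of these, with a maximum of 24. Of the 11 intervals of Mxd4, 5 did not contain their region of maximum, and some of those over or beside Zfyve28 were among them. The 3 beside Mxd1 had maxima of 21, 36 and 34, at 46.2, 61.2 and 63.6 kb, and only the last lay at a gene end, that of Gmcl1. The 3 beside Mxd3 had maxima of 27 at Rab24 and Prelid1, 29 at Lman2 and 32 at F12, the coagulation factor XII gene, all just under the 33 of Mxd3 itself.

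Mnt, the broadly expressed repressor of the network, is at chr11:74830806-74845725 and had 3 intervals over the gene, more than any other member. The interval over the start was the widest of the 8 at starts, 4938 bp (74827899 to 74832836), with a total of 90782 (percentile 94.5) and a maximum of 57 (percentile 93.6). A second one inside the gene (74835315 to 74838409) had a maximum of 28. The third (74843006 to 74844439), towards the 3′ end, had a maximum of 13 (percentile 4.27) and did not contain its own region of maximum. Together they covered 43.97% of the gene. Of the 4 intervals beside Mnt, the strongest (maximum 52, percentile 90.0) lay 59.2 kb away at Mettl16, an RNA methyltransferase gene, and the others reached 19 at Sgsm2 and 33 at Smg6.

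Mlx, at chr11:101086707-101092207, had an interval of 3315 bp (101085470 to 101088784) over its start, with a total of 35695 and a maximum of 43 (percentile 80.5). The interval also came within 1 kb of the end of Coasy, the coenzyme A synthase gene just upstream. Mlx had 15 intervals within 100 kb, the most of the 10 genes. Several were stronger than its own: Tubg1, a gamma-tubulin gene, had a maximum of 86 at 24.96 kb, an interval at Atp6v0a1, a proton pump gene, had 79 at 75.1 kb, and one at Psmc3ip and Retreg3 had 69 at 1.37 kb. An interval of 19134 bp that reached Plekhh3, Ccr10 and Cntnap1 lay 76.4 kb away.

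Mga, the longest of the genes at chr2:119872503-119970129, was the case where the annotated gene end and the annotated start differ. No interval lay at its lower end. One of 2035 bp (119896672 to 119898706) covered the start in the promoter table, which lies inside the gene record, with a maximum of 47 (percentile 85.4) and a total of 26631. The gene-end interval counted above was at the upper, 3′ end instead (119969994 to 119973358, maximum 49, total 53362). Its maximum lay 2199 bp beyond Mga, and the interval is also within 1 kb of an end of Mapkbp1, the next gene. By maximum signal, Mga stood above percentile 75 at the start and at the gene end. By total signal its start interval was at percentile 44.3 and its 3′ end interval at 81.7. The 11 intervals beside Mga all had lower maxima than the one at the start, between 14 and 39. The highest was within 1 kb of an end of both Mapkbp1 and Jmjd7, and the receptor kinase gene Tyro3 on the lower side had 25.

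**Figure D3:**
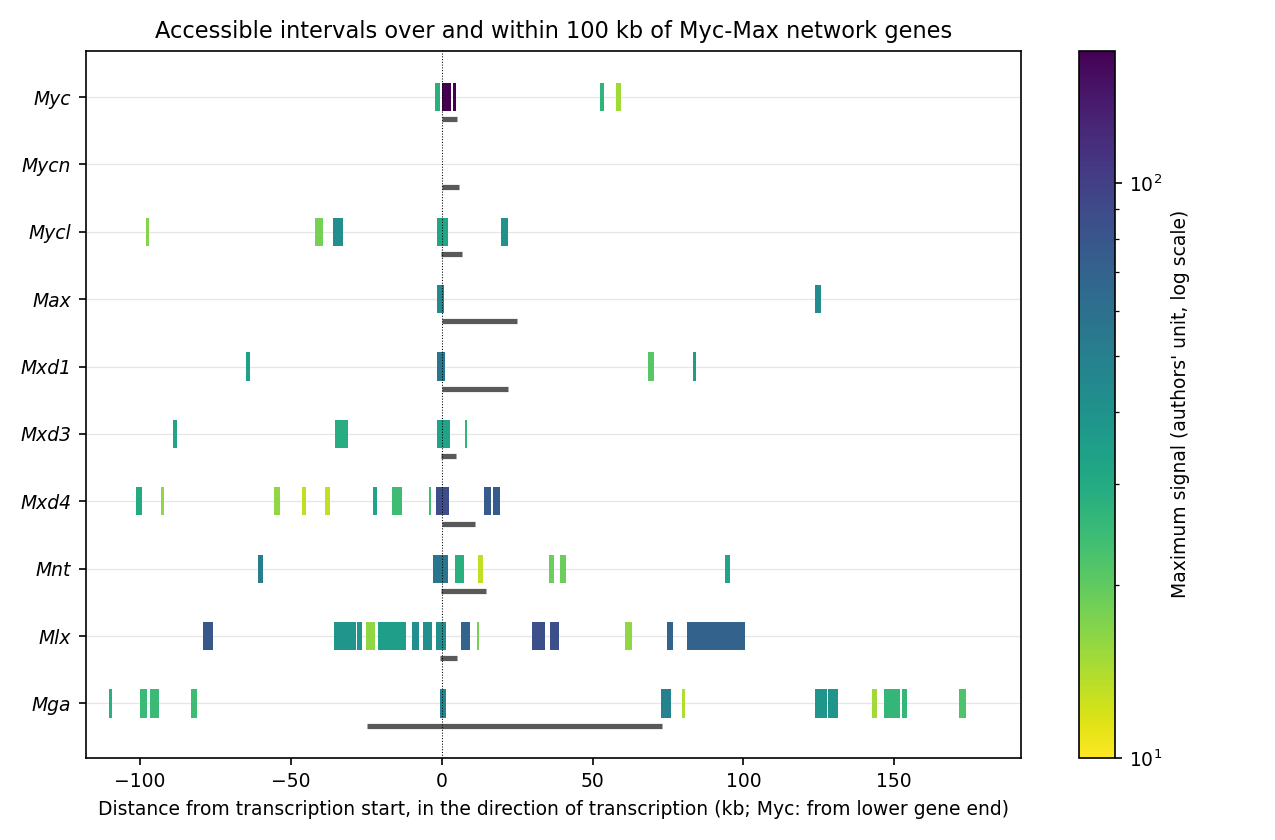
All 66 intervals over and within 100 kb of the network genes, coloured by maximum signal (log colour scale, authors' unit), with each gene as a grey line. Distance runs in the direction of transcription from the start, and for Myc from the lower gene end. Mxd4, Mlx and Mga hold 39 of the intervals and Mycn none.

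Over all 10 genes the windows of 100 kb held 66 intervals from 55 marked regions. Of these, 13 lay over the genes and 53 beside them, 30 of the latter within 1 kb of an end of another gene, 1 near the end of Myc itself and 22 at no gene end. Mxd4 (11), Mlx (15) and Mga (13) accounted for 39 and the other 7 genes for 27. These 3 genes lie on chromosomes 5, 11 and 2, where other protein-coding genes had a median of 8, 5 and 5 intervals within 100 kb. The median over all protein-coding genes was 3, and that on chromosome 15, with Myc, was also 5. Protein-coding genes within 5 Mb had a median of 10 intervals around Mxd4, 16 around Mlx and 7 around Mga, each counted over the gene with 100 kb on either side. Mlx, with the highest number of the network, therefore stood just below the median of its neighbours, and 58.1% of them had at least as many. Around Mga 13.4% did, but the gene is long and its window spanned 297.6 kb. The number of copies of these chromosomes in the line was not tested.

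Seen against their neighbours, Myc and Mnt had more intervals than the median gene nearby, 5 against 3 and 7 against 4. Of the neighbours 28.9% had at least as many as Myc and 30.2% at least as many as Mnt. Mycl (5 against a median of 7) and Mycn (0 against 3) had fewer. Mxd3 (4 against 3) and Mxd4 (11 against 10) had 1 more than the median. Mxd1 (4 against 4) and Max (2 against 2) equalled the median. The share of neighbours with a gene-end interval ran between 44.4% around Myc and 79.2% around Mxd4.

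**Figure D4:**
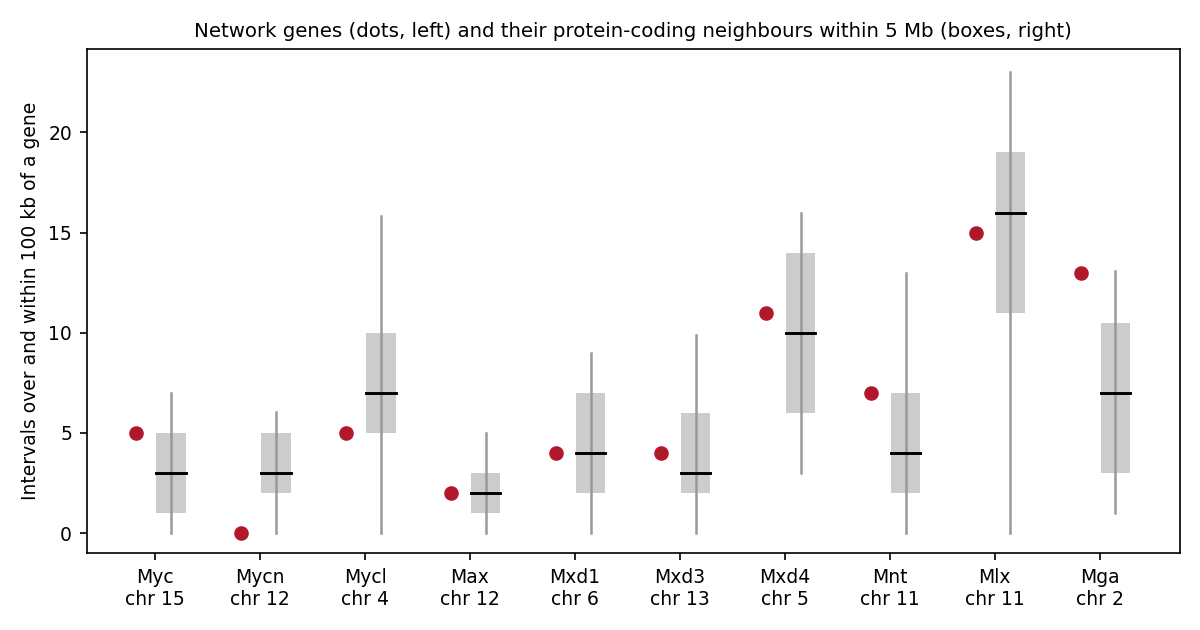
Number of intervals over and within 100 kb of each network gene (red dots) and of its protein-coding neighbours within 5 Mb (grey boxes from the lower to the upper quartile, black line at the median, grey line across the central 90% of neighbours). Mycn (0) lies below the box of its neighbours and Mlx (15) just below the median of 16.

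The other genes of the pathway were grouped in 5 lists of 69 genes, and 61 of them had a gene-end interval. All but 1 of the 11 helix-loop-helix zipper relatives had one, led by Mxi1 (maximum 67), the remaining Mxd-type repressor, Mlxip (63), the glucose-sensing partner of Mlx, Srebf2 (59), an activator of cholesterol synthesis, and Usf1 (54), an E-box factor. Mlxipl, the liver counterpart of Mlxip, had a maximum of 18, and Tfec had no interval within 166.0 kb. Of 9 PRC1.6 genes, 8 had one, led by Cbx3 (73), which encodes a chromodomain protein, and the ubiquitin ligase genes Ring1 (73) and Rnf2 (47), with Yaf2 at 42. E2f6, whose product guides the complex to DNA, had its nearest interval 2.80 kb away.

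Of 18 cofactor genes 16 had a gene-end interval, and 14 of these reached percentile 75 by maximum signal, as 47.9% of all genes with a gene-end interval did. Ep400 (94), a subunit of the TIP60 acetyltransferase complex, led with Sin3a (60), the corepressor scaffold of Mxd proteins, Hdac1 (59), its deacetylase, and Ccnt1 (59), a subunit of the elongation factor P-TEFb. Ruvbl1 and Zbtb17, the gene of the Myc partner Miz-1, had none. Among 11 regulators of Myc stability 9 had one, with Aurka (67), Gsk3b (66) and Stub1 (58) among the highest. The X-linked ubiquitin ligase gene Huwe1 and Skp2 had none at their ends, although each had an interval over the gene. Percentile 75 was reached by 7 of the 9 stability genes with a gene-end interval, and by 5 of 10 relatives, 4 of 8 PRC1.6 genes and 10 of 18 targets with one. Of 20 textbook Myc targets 18 had one, and 13 had the start inside an interval. Nop56 (69), a nucleolar gene, Ddx21 (66), an RNA helicase gene, Cdk4 (64), a cell cycle kinase gene, and Ncl (58), the nucleolin gene, had the highest maxima. Ldha and the telomerase gene Tert had none at their ends. Ldha had an interval over the gene, and the nearest to Tert lay 21.1 kb away. The counts of genes with a gene-end interval are read against the same 47.4% of all genes. Those at percentile 75 are read against the 47.9%, and that of starts inside an interval against 45.3%. The lists were chosen with earlier results of these data known, and no list was tested.

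**Figure D5:**
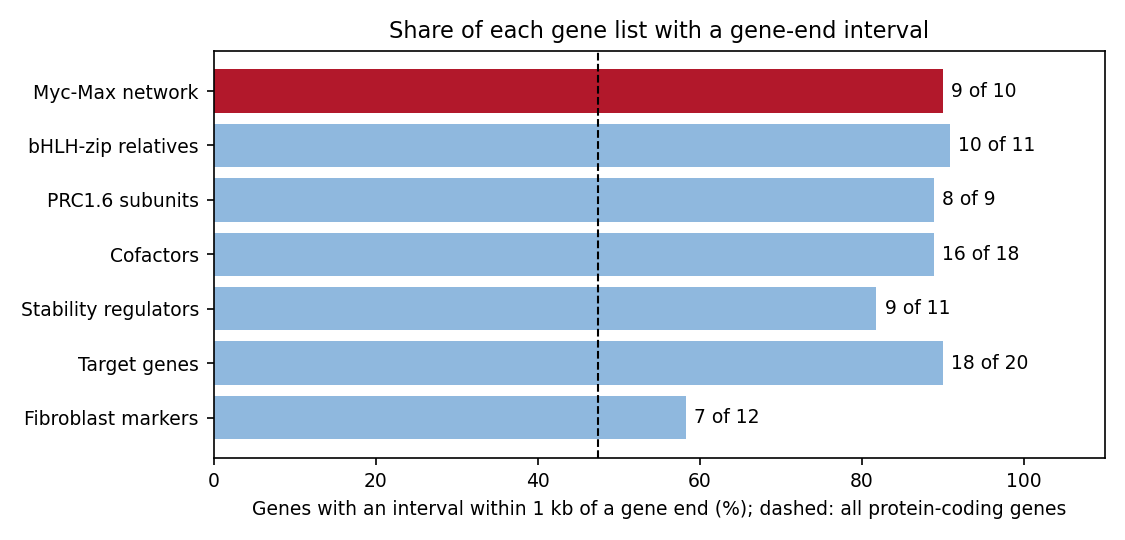
Share of genes with an interval within 1 kb of a gene end in the Myc-Max network (red), 5 lists of pathway genes and the fibroblast markers (blue), with the number of genes at each bar. The dashed line marks all protein-coding genes, 47.4%. The pathway lists lie between 81.8% and 90.9%, and the fibroblast markers at 58.3%.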

How the data were processed

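ATAC-seq of 6 samples was labelled by genotype and treatment, 2 per group, and 1 list of intervals, that of the Ezh2 -/- group, was used. Per the submitters' processing notes, Bowtie2 2.2.9, deepTools, SEACR and build mm10 were involved. No source used here gives the threshold, control, duplicate handling, transposase shift or pooling of replicates. Column 4 was deposited as a score, read as the total signal of a region, and column 5 as a maximum signal, both without stated normalization. Intervals with identical values, 19215 sets in all, were taken as pieces of 1 region, and 17 of the 66 intervals near the members did not contain their region of maximum.

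The members and lists were chosen with earlier results of these data known. An interval counted at a gene end from 1 bp of overlap with 1000 bp on either side. The text names every member, the 4 genes of each list with the highest maximum, and up to 3 genes per list lacking an interval, taken alphabetically; 1 gene that this rule takes is not reported here, and other names were added as context after values were seen. Positions are 1-based. Genes and promoters came from RefSeq GRCm38.p6, and starts from the promoter table. Percentiles used regions on chromosomes, leaving out 76 intervals on unplaced sequence. Alternatives changed the window, the distance, the threshold, the overlap and the percentile. Calculations used Python 3.11.15, numpy 2.4.6, pandas 2.3.3, scipy 1.17.1 and matplotlib 3.10.9, and the interval lookup was tested on simulated data.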

Additional observations from a re-analysis of the deposited data

How the results depend on the processing

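The count of 9 network genes with a gene-end interval was unchanged with windows of 500 and 2500 bp, above the median total signal, with intervals holding their maximum and with an overlap of 200 bp. It was 7 with the top quartile of total signal, and 8 by the start inside an interval, since Myc has no promoter entry. The background moved more: 45.9% and 50.2% of all protein-coding genes with windows of 500 and 2500 bp, 32.7% above the median, 19.6% in the top quartile, 45.2% with intervals holding their maximum and 45.3% by the start. The relatives list was at 6 genes above the median and at 5 in the top quartile, where PRC1.6 had 3 and the stability list 5. By the start inside an interval, 13 of 20 targets, 6 of 9 PRC1.6 genes and 8 of 11 relatives were counted. So were 14 of 18 cofactors and 9 of 11 stability genes. These counts are over all listed genes, so a gene without a promoter entry would count as lacking one. The 66 intervals near the network genes became 41 within 50 kb, 125 within 200 kb, 42 above the median and 32 in the top quartile. At or above percentile 75 stood 7 genes by maximum and 7 by total signal, but not the same genes: by total signal Max (55.3) and Mlx (62.5) were below it and Mycl (79.4) and Mxd3 (79.3) above. Mga (81.7 by total signal) counted through its 3′ end interval, whereas its start interval was at 44.3. Among regions at gene ends the count by maximum was 5. The 47.9% of all genes with a gene-end interval applies only to maximum signal ranked among all marked regions on the chromosomes. No share over all genes is given for total signal or for the ranking among regions at gene ends. The counts under those rankings therefore have no background to be read against. Without Myc, an alternative added after the data were seen, 8 of 9 genes had a gene-end interval and 6 were at or above percentile 75. No paired analysis was possible because the list has no value per replicate, and leaving out a replicate could not be run for the same reason. Depth is unknown, so signal below the list's threshold was not detectable.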

Other observations

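The surroundings of the 3 Myc paralogs differed over a wider range. Within 1 Mb of Myc lay no other protein-coding gene and 5 intervals outside the gene, of which the strongest (62327440 to 62330440 on chromosome 15, maximum 31, total signal 41618) stood 337.1 kb above Myc with no annotated gene within 1 kb of it. Around Mycn, 3 other protein-coding genes and 3 intervals lay within 1 Mb, with maxima of at most 26. Around Mycl, 23 other protein-coding genes and 40 intervals did, the strongest with a maximum of 82 at Cap1, a gene of an actin-regulating protein, 108.2 kb away. No difference between these surroundings was tested.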
